A study of Rattus norvegicus with 8 samples.

Results

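The genes described here encode the proteins of the mitochondrial ribosome. They were chosen by symbol, as the rows of the 2 deposited tables named Mrpl or Mrps with a number and at most 1 further letter, and came to 67 of 26405 Ensembl rat genes, 40 named Mrpl (large subunit) and 27 named Mrps (small subunit). Hippocampal neurons from rat embryos were cultured for 10 to 14 days in microfluidic chambers, which keep axons apart from cell bodies. Their axons alone received the amyloid peptide Abeta(1-42) as soluble oligomers, or vehicle, for 24 h, and RNA of each compartment was sequenced. The 8 samples form 4 groups of 2, namely axons with Abeta, axons with vehicle, soma with Abeta and soma with vehicle. No label states whether the 2 samples of a group are separate cultures, so p-values measure only how far these samples spread, and that spread may be technical.

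The mitochondrial ribosome translates the few proteins encoded in mitochondrial DNA, all of them subunits of the respiratory chain and ATP synthase. Its RNAs are transcribed in the organelle, whereas its proteins are encoded in the nucleus, made on cytosolic ribosomes and imported. In neurons, some transcripts of mitochondrial proteins are carried into axons and translated there, far from the nucleus. About as many of its proteins are shared with bacterial ribosomes as were added or replaced during the evolution of mitochondria. The letter in a symbol does not always give the subunit, since Mrps30 and Mrps18a sit in the large subunit in published structures. The row named Mrps36 carries the RefSeq symbol Kgd4, a subunit of the 2-oxoglutarate dehydrogenase complex.

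The authors' deposited tables, 1 for axons and 1 for soma, give for each gene a normalized count averaged over 4 libraries, a log2 fold change between treatments with its standard error (SE), and p-values. Which treatment the fold change divides by which is not stated, so signs are given as deposited, and a gene lies on the positive or the negative side. Because each mean is a sum of whole reads times 4 fixed weights, the reads of each library could be recovered for all 67 members. Libraries are named by side and number, with number 1 the library of larger size factor, and they cannot be matched to sample titles. The recovered libraries held 176888 to 326899 reads in axonal genes with a mean under 100. In soma, 1 library of each side was deep (1032594 and 1361611 such reads) and the other shallow (104281 and 113354). The 2 tables were normalized separately, so levels set across them compare values on different scales.

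Promoters from RefSeq (assembly GRCr8, not known to be the build of the counts) were matched for 53 of the 67 members. Letters bound by NRF1, ETS-family factors and YY1 were searched on both strands in a window from 250 bases before to 50 after the start of the gene, since these factors are known regulators of nuclear genes for mitochondrial proteins. The NRF1 letters (GCGCA, any base, then GCGC) stood in 6 of 53 windows (11.3%, against 5.66% of 21842 protein-coding promoters). The ETS letters CCGGAAG stood in 16 (30.2%, against 10.7%) and the YY1 letters AAGATGGC in 14 (26.4%, against 3.68%). At least 1 of the 3 stood in 28 (52.8%, against 17.9%). With only the bases before the start, the counts were 5 (9.43%, against 5.06%), 10 (18.9%, against 9.01%) and 2 (3.77%, against 1.64%), so most YY1 letters reached or lay beyond the start. Below are the 250 bases before the start, 5′ to 3′ on the strand of the gene, with matches in capitals. Mrpl17 and Mrpl28 are shown as the members with the highest and lowest axonal Wald score. Mrps18a and Mrpl36 are shown as the members of highest somatic mean with an ETS and a YY1 match before the start. A match is a description of letters, not a site.
Mrpl17 (chr1:169575700-169575949, minus strand, 1 NRF1 match): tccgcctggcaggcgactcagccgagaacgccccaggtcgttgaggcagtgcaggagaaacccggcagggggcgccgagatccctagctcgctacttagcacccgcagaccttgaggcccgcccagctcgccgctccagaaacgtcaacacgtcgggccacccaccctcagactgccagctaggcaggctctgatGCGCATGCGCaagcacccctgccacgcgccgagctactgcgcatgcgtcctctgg
Mrpl28 (chr10:15652929-15653178, plus strand, no match): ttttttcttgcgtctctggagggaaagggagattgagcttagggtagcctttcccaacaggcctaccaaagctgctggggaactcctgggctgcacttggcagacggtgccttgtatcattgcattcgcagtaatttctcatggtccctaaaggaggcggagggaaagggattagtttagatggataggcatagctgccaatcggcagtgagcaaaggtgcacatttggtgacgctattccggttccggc
Mrps18a (chr9:22367381-22367630, minus strand, 1 ETS match): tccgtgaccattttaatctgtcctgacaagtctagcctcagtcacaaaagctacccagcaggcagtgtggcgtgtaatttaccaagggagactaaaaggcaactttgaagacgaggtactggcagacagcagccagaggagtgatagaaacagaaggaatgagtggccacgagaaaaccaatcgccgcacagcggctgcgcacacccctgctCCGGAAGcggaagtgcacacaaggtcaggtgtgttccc
Mrpl36 (chr1:31795122-31795371, minus strand, 1 ETS and 1 YY1 match, the latter read on the opposite strand): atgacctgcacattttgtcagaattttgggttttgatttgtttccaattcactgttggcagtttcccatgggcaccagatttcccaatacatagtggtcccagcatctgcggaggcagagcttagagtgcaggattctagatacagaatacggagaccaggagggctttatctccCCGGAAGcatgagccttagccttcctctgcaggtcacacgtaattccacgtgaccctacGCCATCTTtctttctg

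Each of the 67 members had reads in both compartments, whereas 90.4% of all genes had reads in axons and 71.9% in soma. In the authors' deposited table for axons, the means of the members ran from 0.574 to 29.7 normalized counts, with a median of 5.86, and the median over all genes was 4.53. Somatic means in the authors' deposited table ran from 1.86 to 88.0 with a median of 28.4, against 3.97 over all genes. Behind these means lay 3 to 122 reads per member over the 4 axonal libraries (median 27) and 25 to 828 over the 4 somatic libraries (median 229). The members thus were genes of moderate read number in soma and of few reads in axons. Their means added up to 0.0214% of the total over all genes in axons and 0.0488% in soma. Of the total over genes with a symbol they made up 0.0955% and 0.178%. These means are not divided by transcript length, so their order among members is an order of reads, not of molecules.

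Of the 10 members with the most reads, 8 in axons and all 10 in soma were Mrpl genes. In axons, Mrpl51, a subunit without a bacterial counterpart (ENSRNOG00000019165), had the highest mean, with 23.4 and 29.7 normalized counts in the positive and 21.0 and 44.6 in the negative libraries. These values overlapped between sides, and the 2 negative libraries were the lowest and the highest. In soma Mrpl49 (ENSRNOG00000020975) led, with 108 and 74.1 normalized counts in the positive and 126 and 43.8 in the negative libraries, so that both deep libraries lay above both shallow ones. Mrpl17, the counterpart of a bacterial protein near the exit of the peptide tunnel, was in the top 3 of both compartments, with a mean of 15.8 in axons and 57.2 in soma in the authors' deposited tables. The remaining members among the 10 with the most axonal reads were Mrpl49, Mrpl45, Mrps6, Mrpl38, Mrpl3, Mrpl10, Mrps2 and Mrpl35, with means of 10.0 to 13.1 in the authors' deposited table. Mrpl45 helps to hold the ribosome at the inner membrane, and Mrpl10 anchors the stalk formed by Mrpl12. The somatic top 10 further held Mrpl41, Mrpl15, Mrpl20 and Mrpl12, whose means of 49.3 to 50.5 in the authors' deposited table differed by less than their libraries did.

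**Figure D1:**
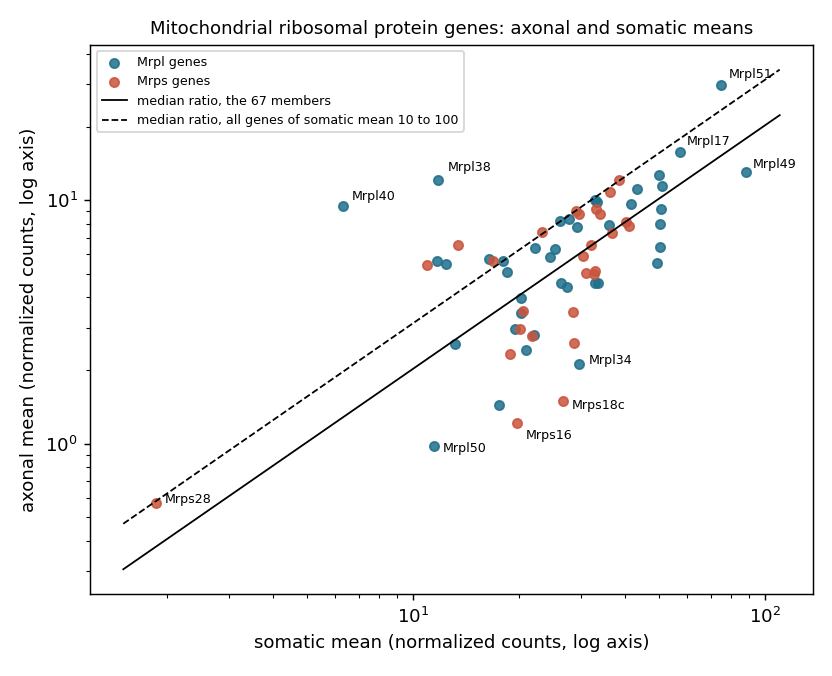
Mean normalized count of each of the 67 members in axons (vertical, log axis) against soma (horizontal, log axis), from the authors' deposited tables, which were normalized separately. The solid line marks the median ratio of the members (0.203) and the dashed line that of all genes with a somatic mean of 10 to 100 (0.313). Most members lie below the dashed line, Mrpl38 and Mrpl40 far above it, and Mrps18c, Mrps16 and Mrpl34 far below the solid line.

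Members with more somatic reads tended to have more axonal reads. Across the 67 members, the logarithms of the axonal and somatic means in the authors' deposited tables had a Pearson correlation of 0.600 and a Spearman correlation of 0.591. This is a description across genes that share the libraries and, in each gene, the transcript length. The ratio of axonal to somatic mean had a median of 0.203, against 0.313 for all genes with a somatic mean of 10 to 100. It was 0.157 for cytosolic ribosomal protein genes (39 of 42 rows, those with somatic reads) and 0.169 for nuclear genes of oxidative phosphorylation (67 of 71 rows). With separate normalization of the tables, these ratios serve only to set gene groups beside each other, and no test was made between the groups.

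Single members differed widely in this ratio. Mrps18c, a small subunit protein with a bacterial counterpart, had the lowest ratio, 0.0561. Its axonal reads, 3 and 3 in the positive and 0 and 1 in the negative libraries, stood beside a somatic mean of 26.6 in the authors' deposited table. Mrps16 followed at 0.0618 (3, 2, 1 and 0 axonal reads in the same order), then Mrpl34 at 0.0717, Mrpl18, which takes part in the import of 5S ribosomal RNA, at 0.0823, and Mrpl50 at 0.0852. At the other end, Mrpl38, a mitochondria-specific subunit, had a ratio of 1.03 with 14 and 8 reads in the positive and 3 and 21 in the negative libraries. Among the 5 members whose percentile rank in axons was highest relative to that in soma, only Mrpl38 and Mrpl51 ranked higher in axons than in soma. Mrpl51 had a ratio of 0.395, Mrps27, a small subunit protein with pentatricopeptide repeats, 0.490, Mrps6 0.316 and Mrpl17 0.276. Mrpl40, named after its values were seen, had the highest ratio (1.50) and a somatic mean of only 6.31 in the authors' deposited table. It was outside that comparison of ranks, and its rank was also higher in axons than in soma.

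The 3 paralogs named Mrps18 illustrate this range. Mrps18a (ENSRNOG00000019511), whose promoter is printed above, had an axonal mean of 8.18 and a somatic mean of 40.2 in the authors' deposited tables. For Mrps18b (ENSRNOG00000000804) they were 8.80 and 29.6, and for Mrps18c (ENSRNOG00000002178) 1.49 and 26.6. In axons, Mrps18a had 6.05 and 10.2 normalized counts in the positive and 8.40 and 8.10 in the negative libraries, and Mrps18b had 9.83 and 11.7 against 13.7 and 0. The axonal reads of Mrps18c came to 7 in all, whereas its somatic values of 32.3, 6.73, 42.2 and 25.0 overlapped those of Mrps18b (39.1, 23.6, 30.7 and 25.0).

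Reads fell in all 4 axonal libraries for 42 of the 67 members (62.7%). The share was 54.1% of all genes with an axonal mean under 100, but 84.2% of genes with a somatic mean of 10 to 100, the range that holds most members. In narrower windows, 17 of 37 members with a somatic mean of 10 to 30 had reads in all 4 axonal libraries (45.9%, against 73.2% of all genes there). Of 28 members with a somatic mean of 30 to 100, 24 did (85.7%, against 93.3%). The median axonal mean in these windows was 4.56 for members against 7.21 for all genes, and 8.48 against 14.5. A further 20 members had reads in 3 libraries, and 5 in only 2, namely Mrpl1, Mrpl22, Mrpl34, Mrpl50 and Mrps28, of which Mrpl1, Mrpl22 and Mrps28 are named after their values were seen. At least 3 reads in every axonal library were reached by 25 members (37.3%, against 39.4% of all genes with an axonal mean under 100 and 65.6% of those with a somatic mean of 10 to 100). In soma, 65 of 67 had reads in all 4 libraries.

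Fewer members had reads in the shallower libraries. The members had a median of 8 and 8 reads in the positive axonal libraries and 5 and 3 in the negative ones. Without a read were 1 and 3 members in the former and 8 and 18 in the latter. Counting error alone at the mean of each side gives an expected 1.55, 1.64, 7.24 and 9.05. The excess thus lay in the shallowest library, negative library 2, where 10 of 27 Mrps genes and 8 of 40 Mrpl genes had no read. A count of 0 allows up to 3 reads, so no member is called absent from it. Of the Mrpl genes 27 of 40 (67.5%) had reads in all 4 axonal libraries, and of the Mrps genes 15 of 27 (55.6%). Members with bacterial counterparts did so in 21 of 39 cases (53.8%) and the other members in 21 of 28 (75.0%).

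**Figure D2:**
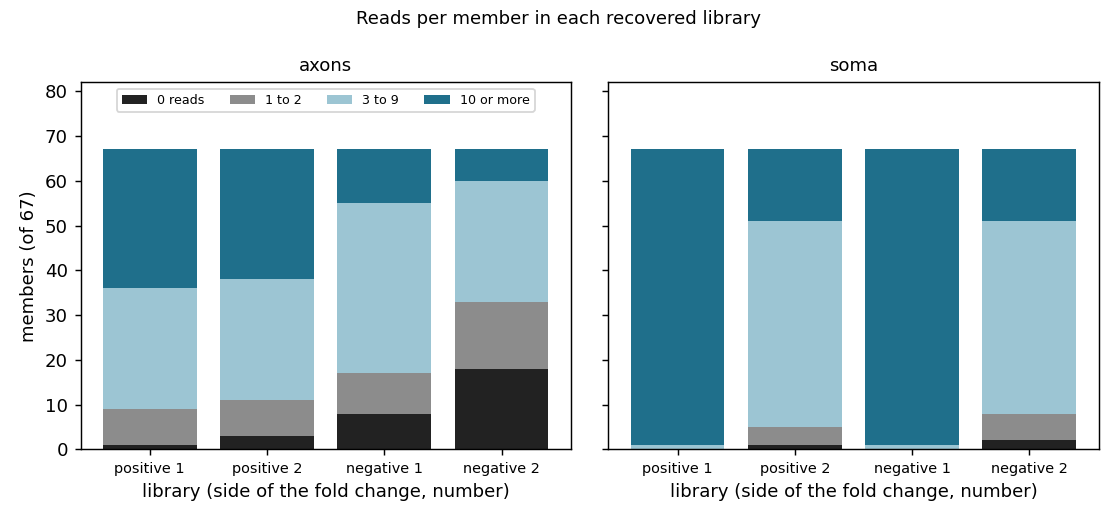
Number of the 67 members (vertical) with 0, 1 to 2, 3 to 9 and 10 or more recovered reads in each of the 4 axonal (left) and 4 somatic (right) libraries, named by side of the fold change and number. Members without a read number 1, 3, 8 and 18 in the axonal libraries, and 66 of 67 members have 10 or more reads in each of the deep somatic libraries.

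The 2 libraries of a side differed by more than counting error. For each gene and side, the squared difference between the 2 libraries was divided by what counting alone gives, so that its expected mean is 1. Its median under counting alone is below 1, so the medians are given only to set members beside all genes. In axons its mean over members was 2.53 (positive side) and 3.17 (negative side), against 3.14 and 3.24 for all genes with a mean under 100. Medians were 0.974 and 1.79 for members and 1.93 and 1.78 for all genes. For the 43 members with an axonal mean of 3 to 10 the means were 2.91 and 3.36, close to the 3.01 and 3.21 of all genes in that range. For the 10 members with a mean of 10 to 30 they were 1.38 and 3.82, against 3.60 and 3.72. In soma the means were 2.37 and 4.26 for members and 5.95 and 8.32 for genes with a somatic mean of 10 to 100, with medians of 1.84 and 2.65 against 1.68 and 2.33. Examples of wide pairs were Mrpl23, which lines the exit of the peptide tunnel, with 8.31 and 0 normalized counts in the positive and 2.10 and 14.9 in the negative libraries, and Mrpl15, with 9.07 and 8.61 against 0 and 8.10. Mrpl3 was a narrow one, with 11.3 and 12.5 against 12.6 and 9.45.

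No member passed the authors' test between treatments in axons. The authors' deposited table gives adjusted p-values only to axonal genes with a mean of at least 44.8, of which 304 of 1321 (23%) were called by DESeq2 with Benjamini-Hochberg adjusted p under 0.05. All 67 members lay below that mean and have none. With the deposited DESeq2 p-values adjusted over all 23879 genes with axonal reads, 0 members were called, the smallest adjusted p among them being 0.939 (0.218% of all genes were called). At an unadjusted DESeq2 p under 0.05 there was 1 member, 1.49% of 67, where the share was 4.45% of all genes with reads. The SE of the members in the authors' deposited table had a median of 1.01 on the log2 scale. The median deposited fold change needed for an unadjusted p of 0.05 was thus 3.95-fold in axons. In soma it was 2.14-fold. These folds do not hold for ratios of normalized counts, since the deposited values lay nearer to 0. Mrpl32, for example, had a log2 ratio of 2.51 from recovered reads and 1.44 as deposited, with an unadjusted DESeq2 p of 0.174. No other count model was run, on the recovered reads or otherwise.

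Mrpl17 (ENSRNOG00000019497) was that member. It had 29.5 and 22.7 normalized counts on the positive side (39 and 29 reads) and 4.20 and 6.75 on the negative (4 and 5 reads). The sides did not overlap, and the positive values stood several times above the negative ones. In the authors' deposited table its axonal log2 fold change was 1.81 (SE 0.84), with an unadjusted DESeq2 p of 0.0312. In soma its values were 61.6 and 57.2 against 72.4 and 37.5, which overlapped, with a log2 fold change of 0.05 in the authors' deposited table.

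The next largest positive Wald scores belonged to 4 members with 11 to 53 axonal reads. Mrpl34, a small basic protein of the large subunit with a bacterial counterpart, had 3.02 and 5.48 normalized counts in the positive libraries and 0 in both negative ones. These were 4 and 7 reads against none, too few for a fold beyond the limit that counts of 0 allow. Its log2 fold change in the authors' deposited table was 1.51 (SE 1.03). Mrpl32, which is matured by a protease of the inner membrane, had 3.78 and 8.61 against 0 and 1.35 normalized counts. Mrps7, which lies in the head of the small subunit, had 12.1 and 11.0 against 1.05 and 5.40. Mrpl10 had 15.9 and 17.2 against 7.35 and 4.05. In all 4 genes both positive libraries lay above both negative ones. The log2 fold changes of Mrpl32, Mrps7 and Mrpl10 in the authors' deposited table were 1.44, 1.25 and 1.16, with unadjusted DESeq2 p-values of 0.174, 0.209 and 0.199.

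Mrpl28 (ENSRNOG00000042720), a large subunit protein with a bacterial counterpart, lay farthest on the negative side. It had 5.29 and 3.13 normalized counts in the positive and 18.9 and 12.2 in the negative libraries (7 and 4 reads against 18 and 9), without overlap. In the authors' deposited table its axonal log2 fold change was -1.40 (SE 0.93), with an unadjusted DESeq2 p of 0.130. Its somatic values, 26.9 and 30.3 against 31.8 and 43.8, also did not overlap and had the same sign, with a log2 fold change of -0.27 in the authors' deposited table. The other 4 most negative members had values between -0.66 and -0.58 in the authors' deposited table. Of these, only Mrps34, a mitochondria-specific small subunit protein, had sides that did not overlap (3.02 and 4.70 against 9.45 and 5.40). Mrpl38 had 10.6 and 6.26 against 3.15 and 28.4, Mrps9 had 4.54 and 2.35 against 4.20 and 9.45, and Mrpl23 is given above.

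**Figure D3:**
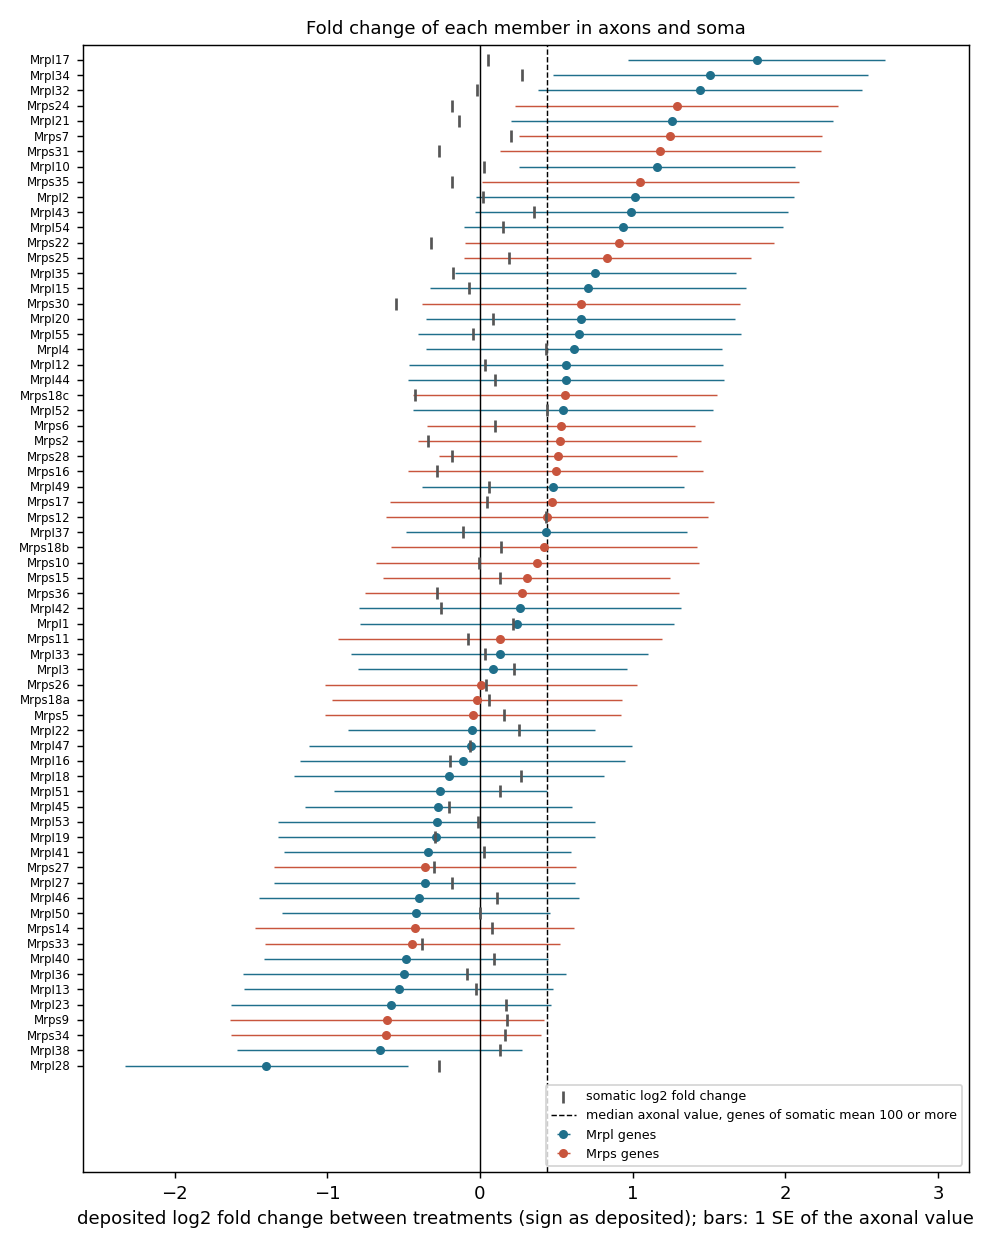
Axonal log2 fold change between treatments for each of the 67 members (points, bars of 1 SE) with the somatic value (vertical ticks), from the authors' deposited tables and with signs as deposited. The dashed line marks the median axonal value of all genes whose somatic mean reached 100 (0.44). Values run from -1.40 (Mrpl28) to 1.81 (Mrpl17), and most bars cross 0.

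As a group the members lay on the positive side in axons, but so did genes with more somatic reads than any member. The sign of the median flipped relative to those genes and not relative to genes in the somatic range of the members. In the authors' deposited table the axonal log2 fold change had a median of 0.38 over the 67 members (quartiles -0.28 and 0.66), against -0.13 over all genes with axonal reads. The median was 0.08 for genes with a somatic mean of 10 to 100 and 0.44 for the 2683 genes whose somatic mean reached 100. Centred on the latter, a class that holds no member, the median of the members was -0.063 with 31 of 67 above 0. Centred on genes with a somatic mean of 10 to 100, which hold most members, it was 0.30 with 41 above 0. The value was above 0 for 42 of 67 members (62.7%), against 43.7% of all genes and 54.4% of those with a somatic mean of 10 to 100. By symbol, 22 of 40 Mrpl genes (median 0.19) and 20 of 27 Mrps genes (median 0.44) lay above 0. For the 41 cytosolic ribosomal protein genes with axonal reads the median in the authors' deposited table was 0.51, and for 66 nuclear genes of oxidative phosphorylation 0.54.

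Both positive libraries lay above both negative ones for 23 members (34.3%), and both negative above both positive for 5 (7.46%), with 39 overlapping. The shares were 16.6% and 19.9% among all genes with an axonal mean under 100, and 24.6% and 16.5% among genes with a somatic mean of 10 to 100. Among 65 nuclear genes of oxidative phosphorylation with axonal reads and a mean under 100 they were 46.2% and 7.69%. Among 40 such cytosolic ribosomal protein genes they were 47.5% and 2.5%, so the lean to the positive side was not particular to the members. The 5 members on the negative side were Mrpl28, Mrps34, Mrps33, Mrps27 and Mrpl53, the last named after its values were seen. Among Mrpl genes the counts were 14 and 2, and among Mrps genes 9 and 3.

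The members were also summed in each library. Their summed normalized counts were 509 and 502 in the positive and 406 and 378 in the negative axonal libraries, a ratio of side means of 1.29. The 65 oxidative phosphorylation genes summed to 1019 and 1361 against 744 and 812. The 40 cytosolic ribosomal protein genes summed to 1200 and 1623 against 920 and 885. Per 1000000 reads in genes with a mean under 100, the members took 2082 (exact 95% binomial interval 1928 to 2245) and 1964 (1815 to 2122) reads on the positive side. On the negative side they took 1685 (1521 to 1861) and 1583 (1403 to 1779). These intervals cover counting error only, since the reads carry no molecular identifiers, and the interval of positive library 2 overlaps that of negative library 1. With 2 libraries on each side an exact permutation test cannot reach p under 0.05, and none was made. The Mrpl genes took 1347 and 1224 against 1049 and 1165 reads per 1000000 (ratio of summed normalized counts 1.21), and the Mrps genes 735 and 740 against 636 and 418 (ratio 1.46). The Mrps sum thus differed 1.53-fold between the 2 negative libraries, beside 1.17-fold between positive and negative library 1 and 1.89-fold between positive and negative library 2. In such bulk samples, fewer cells or axons contributing and less RNA in each cannot be told apart.

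**Figure D4:**
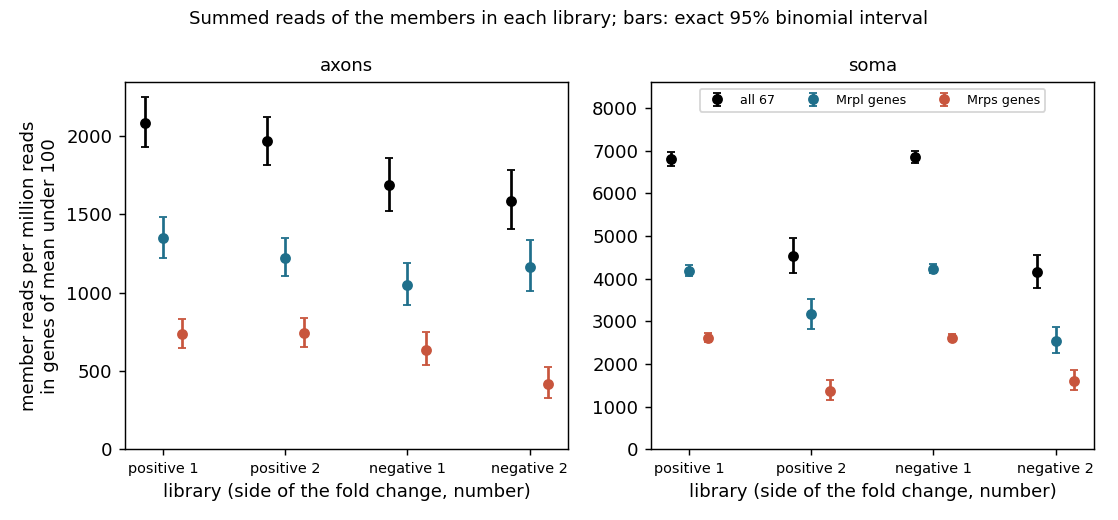
Summed reads of all 67 members, the 40 Mrpl genes and the 27 Mrps genes per 1000000 recovered reads in genes with a mean under 100 (vertical), in each axonal (left) and somatic (right) library, with exact 95% binomial intervals as bars. In axons the 4 values for all members run from 1583 to 2082, and in soma the deep libraries (6804 and 6851) lie above the shallow ones (4536 and 4155) on both sides.

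Some other transcripts moved with the sides of the axonal libraries, and others did not. Of 8 astrocyte marker genes with rows, all lay on the positive side, with summed normalized counts of 2277 and 2722 on the positive against 400 and 824 on the negative side. Of the 6 with an adjusted p, 5 were called by the authors' deposited table (23% of all genes with one), and 2 were called with adjustment over every gene with reads (0.218% of all). For 7 fibroblast markers the sums were 622 and 977 against 158 and 169. Of these, 3 (Col1a1, Col1a2 and Fbln1) were called on the positive side, and the other 4 (Pdgfra, Col3a1, Dcn and Lum) had values below 0 in the authors' deposited table, with a median over the 7 of -0.05. For 8 microglial markers they were 66.5 and 24.3 against 95.6 and 155, though Aif1 and Trem2 lay above 0. For 6 oligodendrocyte markers they were 66.5 and 57.9 against 53.6 and 32.4, though Olig2 and Sox10 lay below 0. For 5 of 7 listed axonal markers, those with rows, they were 436 and 490 against 276 and 588. Of these, Stmn2 lay higher on the positive and Nefl on the negative side, without overlap. For 3 of 6 listed markers of neuronal bodies and dendrites they were 144 and 145 against 97.7 and 115. Most of this was Dlg4 (112 and 117 against 56.7 and 91.8), whereas Neurod1 was higher on the negative side (13.6 and 7.04 against 14.7 and 17.6). None of these markers was at 0 over the axonal libraries. Tubb3, a neuronal tubulin, had an axonal mean of 111 in the authors' deposited table. Of the recovered axonal reads, 3.68% and 1.61% on the positive and 7.14% and 6.05% on the negative side belonged to genes without somatic reads. The part of these differences in the values of the members was not tested.

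In soma no member passed the test between treatments. The DESeq2 adjusted p in the authors' deposited table was under 0.05 for 0 of 67 members and for 0 of 18995 genes with somatic reads (0%). All 67 adjusted p-values were 1.00. At an unadjusted DESeq2 p under 0.05 there were 0 members and 0.0105% of all genes, and the smallest p among members was 0.315, for Mrps30. The median log2 fold change in the authors' deposited table was 0.02, with a range from -0.55 to 0.44, and 37 of 67 members (55.2%, against 45.7% of all genes) lay above 0. The sides did not overlap for 3 members on the positive side (Mrpl4, Mrpl52 and Mrps12) and 4 on the negative (Mrpl28, Mrps27, Mrps16 and Mrps30), shares of 4.48% and 5.97% where all genes with a mean under 100 had 8.01% and 7.84%.

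The somatic members with the largest Wald scores had fold changes of about their SE or less. Mrpl4, a protein of the wall of the peptide tunnel, had 40.7 and 47.1 normalized counts in the positive and 31.0 and 25.0 in the negative libraries. Mrpl52 had 29.6 and 43.8 against 27.8 and 15.6, and Mrps12, a protein of the decoding site, 17.8 and 10.1 against 9.62 and 6.26. All 3 had log2 fold changes of 0.43 or 0.44 in the authors' deposited table, with SEs of 0.53 to 0.58. On the other side, Mrps30 had 19.9 and 23.6 against 27.8 and 50.0, with -0.55 in the authors' deposited table. Mrps18c had 32.3 and 6.73 against 42.2 and 25.0, and Mrps33 41.4 and 16.8 against 54.5 and 34.4. In these last 2 genes the sides overlapped, and on each side the deep library lay above the shallow one.

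The somatic values of the members separated the deep from the shallow libraries rather than the sides. They took 6804 (6647 to 6965) and 6851 (6714 to 6991) reads per 1000000 in the deep libraries of the positive and the negative side. In the shallow libraries they took 4536 (4137 to 4963) and 4155 (3789 to 4547), in the same order and with exact 95% binomial intervals. In normalized counts the deep library exceeded the shallow one 1.49-fold (positive side) and 1.69-fold (negative side). Per member, the log2 ratio of deep to shallow had a median of 0.68 (above 0 in 53 of 67) and 0.81 (55 of 67), whereas for genes with a somatic mean of 10 to 100 it was 0.04 and 0.05. The 38 of 71 nuclear genes of oxidative phosphorylation with a somatic mean of 1 to 100 had 0.53 (above 0 in 28) and 0.77 (30). The 12 of 42 cytosolic ribosomal protein genes in that range had -0.10 (6) and 0.39 (7). The ratio of positive to negative was 0.949 between the 2 deep and 1.08 between the 2 shallow libraries. The deep and shallow libraries also differed in other transcripts. The 7 fibroblast markers summed to 125 and 113 normalized counts in the deep and 337 and 341 in the shallow libraries. These sums rested on Fbln1, Col1a1 and Col1a2, whereas Pdgfra, Col3a1, Dcn and Lum were higher in the deep library of each side. For the 8 microglial markers the sums were 943 and 726 against 579 and 522, but Cd68 went the other way (33.0 and 24.6 against 77.4 and 53.2). For the 5 axonal markers the sums were 2887 and 3173 against 2990 and 2853. Among these, Gap43 and Nefl were higher in both deep libraries, and Stmn2 and Syn1 in both shallow ones. No test of depth was made, and the cause was not tested.

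No member passed the test of a difference in fold change between axons and soma. The difference of the 2 deposited log2 fold changes was divided by its SE, taking the tables as independent, and 0 of 67 members passed a Benjamini-Hochberg adjusted p under 0.05 by this test of deposited values (smallest 1.00; 0.0326% of 18406 genes passed). At an unadjusted p under 0.05 there were 0 members and 2.6% of all genes. The largest difference was that of Mrpl17, 1.76 (SE 0.99, unadjusted p = 0.0743 from the deposited DESeq2 values), and the most negative that of Mrpl28, -1.13 (SE 1.07).

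Genes that act with the mitochondrial ribosome held no called member in soma by the authors' deposited table. In axons none of them has an adjusted p there, since their means lie below 44.8, and none was called with adjustment over every gene with reads. Of 9 listed genes with other symbols, 5 lay above 0 in axons (median 0.08 in the authors' deposited table). They include Oxa1l (0.35) and Mrrf (0.08 in the authors' deposited table), which are not ribosomal proteins and both lay above 0. Among the ribosomal proteins listed, Gadd45gip1, Aurkaip1 and Dap3 lay above 0, and Chchd1, Ptcd3, Mrp63 and Ict1 below 0. Of these, Ptcd3, a pentatricopeptide repeat protein of the small subunit, had 24.2 and 29.7 against 49.4 and 8.10 normalized counts, so that its negative libraries were the highest and the lowest. Of 13 listed translation factors and regulators 12 had rows, 8 of them above 0 (median 0.17 in the authors' deposited table). Lrpprc, which stabilizes mitochondrial messenger RNAs, had 27.2 and 36.8 against 24.2 and 21.6, without overlap. Of 22 assembly factors 14 had rows, 7 of them above 0 (median -0.04 in the authors' deposited table). The RNA helicase Dhx30 had 34.0 and 45.4 against 42.0 and 17.6, which overlapped.

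Aminoacyl-tRNA synthetases of mitochondria charge the tRNAs that this ribosome reads. Their 17 rows, with Mars2 under 2 identifiers of identical values, had log2 fold changes in axons with a median of -0.41 in the authors' deposited table, and 6 of them lay above 0. The sides did not overlap for 6 rows on the negative (35.3%, against 19.9% of all genes with an axonal mean under 100) and 0 on the positive side (against 16.6%). Pars2, the prolyl-tRNA synthetase, named after its values were seen, had 3.02 and 0.783 against 30.5 and 13.5 normalized counts. Its log2 fold change in the authors' deposited table was -2.57 (SE 0.93), with an unadjusted DESeq2 p of 0.00580 and an adjusted one of 0.378 over every gene with reads. Hars2, the synthetase with the most somatic reads, had 16.6 and 10.2 against 23.1 and 1.35 normalized counts. Of 10 listed genes of mitochondrial DNA maintenance and transcription 7 had rows, 4 of them above 0 (median 0.24 in the authors' deposited table). Tfam, which packages mitochondrial DNA and starts its transcription, had 12.1 and 11.7 against 3.15 and 5.40, without overlap, and in the authors' deposited table a log2 fold change of 1.05 (SE 0.96).

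The symbol rule leaves out some genes of the same ribosome. There were 3 rows in lower case (mrpl9, mrpl11 and mrpl24), and 11 further rows carried such a symbol only in RefSeq, by Entrez identifier. None of these rows had an unadjusted DESeq2 p under 0.05 in the authors' deposited tables. The largest axonal log2 fold change among them in the authors' deposited table was 1.57 (SE 1.04), for Mrps23, named after its values were seen. Mrpl36, whose promoter is printed above, has a second identifier by RefSeq symbol with an axonal mean of 0.525 in the authors' deposited table, which may share reads with it.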

How the data were processed

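RNA of 8 samples was sequenced with TruSeq libraries, per the labels' protocols. DESeq2, TopHat2, SAMtools and Trim Galore were used, per the submitters' processing notes. The build, like the annotation and the read counter, is not given in the sources used here. The authors deposited 2 tables of their own comparisons. Per the file headers these hold a mean normalized count (a signal, counts divided by size factors), log2 fold changes with SE, a deposited Wald score, and the authors' p-values with Benjamini-Hochberg adjustment.

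The reads of each library were solved from the means, which carry 15 digits. All 23413 axonal and 16312 somatic genes with a mean under 100 had exactly 1 solution, 0 of 1000 altered means had any, and 498 of 498 and 497 of 497 simulated means were recovered. Size factors were 1.32 and 1.28 (positive) and 0.952 and 0.740 (negative) in axons, and 2.97 and 0.297, 3.74 and 0.320 in soma. The deposited log2 fold change was nearer to 0 than the recovered ratio in 48 of 48 members with a ratio of at least 0.5 in size in axons, and in 16 of 16 in soma.

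Members and lists were chosen with earlier results of these data known. Members are named by rank of mean, of Wald score and of axonal against somatic rank (33 in all), others as stated. The last of these ranks covered members with a somatic mean of at least 10. No count model was run on recovered reads. Bacterial counterparts were assigned by symbol. Python 3.11.15, pandas 2.3.3 and scipy 1.17.1 were used. Alternatives covered the genes adjusted over, filters on means, centring, recovered reads and leaving out libraries. For 14 members no promoter was matched.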

Additional observations from a re-analysis of the deposited data

How the results depend on the processing

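Calls among the members remained 0 in axons, in soma and between compartments under each adjustment tried. The median axonal log2 fold change of 0.38 was 0.50 for the 10 members with an axonal mean of at least 10, 0.55 from recovered reads with a pseudocount of 0.5 normalized counts, and -0.063 and 0.30 when centred on genes whose somatic mean reached 100 and on those at 10 to 100. From recovered reads, leaving out 1 library in turn took the axonal 0.55 to between 0.40 (without negative library 2) and 0.84 (without negative library 1), and the somatic median (0.061 from recovered reads, 0.02 as deposited) to between -0.36 (without negative library 2) and 0.48 (without negative library 1). Members above 0 in axons numbered 42 with the deposited values, 31 and 41 with those centrings, and 39 to 47 from recovered reads leaving out 1 library. The share with reads in all 4 axonal libraries was 62.7% at 1 read and 37.3% at 3 reads. The centring on 10 to 100, the counts above 0 and the split of soma by depth (medians -0.051 deep and 0.10 shallow) were chosen after seeing the data. The cause of these shifts was not tested. No paired analysis was possible because the tables carry no column per library and recovered libraries cannot be tied to replicate numbers. At the deposited SEs a member needed a deposited fold change of 2.57-fold to 4.23-fold in axons for an unadjusted p of 0.05. Ratios of recovered counts lay farther from 0 than deposited values, so these folds do not hold for them. The unnamed numerator leaves the direction relative to Abeta unknown.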
